A study of Mus musculus with 6 samples.

Results

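The genes described here encode the inflammasomes of mouse myeloid cells and the enzymes and pore protein that act below them. They were chosen by name as 9 gene symbols, Nlrp3, Nlrp1b, Nlrc4, Naip2, Naip5, Pycard, Casp1, Casp4 and Gsdmd, and each was read from the transcript cluster (the set of array probes for a gene) that carries its symbol. All 9 were measured, as 9 of the 34472 clusters tested. Gsdmd had 2 clusters, and the one with the higher mean over all arrays was used, with the other given beside it.

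Inflammasomes are cytosolic complexes that detect microbial products or cell damage. A sensor of the NLR family assembles with the adaptor ASC and activates caspase-1, which matures IL-1β and IL-18 and cuts gasdermin D, whose free N-terminal part forms pores in the plasma membrane. In mice, caspase-11, the product of Casp4, binds LPS that reaches the cytosol and cuts gasdermin D directly, and in cultured mouse macrophages both Nlrp3 and Casp4 are known to need induction by an inflammatory signal before they can act.

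All mice carried a transgene for RPL10a, a ribosomal protein, fused to Flag and EGFP and driven by the CD11b promoter, and they were 2 to 3 months old. They were injected with saline (3 arrays) or with LPS, an endotoxin of the Gram-negative outer membrane, at 5 mg/kg (3 arrays), and RNA was taken after 24 h. Ribosomes carrying the tag were purified with their bound RNA (TRAP), and each array was made from a pool of 5 mice of both sexes, so differences between single animals were not measured. The tag reports the cells in which that promoter is active, and the labels do not name a tissue. Affymetrix MoGene 2.0 ST arrays give a log2 signal for each cluster. A signal depends on the probes, so levels are compared between arrays and not between genes.

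Markers of several cell types gave signal, from which no makeup can be read because probes differ. The mean log2 signal of 7 neuron markers lay between 10.9 and 11.0 on every array. That of 12 microglia markers lay between 6.50 and 6.86 after saline and between 6.14 and 6.53 after LPS. Itgam, the gene of CD11b, stood between 6.46 and 6.91 after saline and between 6.99 and 7.11 after LPS. Array medians ran from 5.15 to 5.42, and both arrays numbered 3 had the highest of their group. In bulk RNA fewer cells of a type and less RNA per cell cannot be told apart.

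The DNA before the start sites of these genes is shown first for 2 members. Casp4 is shown because it held the single motif match found among the members. Naip2 is shown because it was the member whose groups did not overlap in the cluster used. The sequences are from RefSeq on GRCm38.p6, which had entries for 8 of the 9 genes, and run from 250 bases before to 50 bases after a start site. Naip2 had no match and is all in lower case, while capitals in Casp4 mark a match to a κB pattern, the kind of site that NF-κB proteins bind, which reads GGGA, any base, T, any 2 bases and CC. The Casp4 window is chr9:5308599-5308898 on the plus strand, and the match begins 92 bases before the start site. The Naip2 window is chr13:100202073-100202372 on the minus strand.
Casp4: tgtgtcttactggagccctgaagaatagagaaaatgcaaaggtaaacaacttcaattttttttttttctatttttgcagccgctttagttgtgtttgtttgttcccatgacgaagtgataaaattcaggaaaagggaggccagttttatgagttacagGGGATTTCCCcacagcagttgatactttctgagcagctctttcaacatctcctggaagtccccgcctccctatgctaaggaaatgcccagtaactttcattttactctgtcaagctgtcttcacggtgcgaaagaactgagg
Naip2: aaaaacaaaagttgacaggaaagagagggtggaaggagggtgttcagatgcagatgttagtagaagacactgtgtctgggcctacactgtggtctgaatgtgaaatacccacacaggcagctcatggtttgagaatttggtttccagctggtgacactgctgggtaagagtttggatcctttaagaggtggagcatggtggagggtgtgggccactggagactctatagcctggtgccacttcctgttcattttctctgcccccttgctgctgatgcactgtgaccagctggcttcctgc

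These windows were searched on both strands for that κB pattern, for the core of the interferon-stimulated response element (GAAA, any 2 bases, GAAA) and for a gamma-activated site (TTC, any 3 bases, GAA). None of the 8 members with a sequence had the interferon element or the gamma-activated site, over 11 start sites. Of all 27025 genes in the table, 3.99% had the interferon element, 9.55% the gamma-activated site and 4.79% the κB pattern. The counts among 8 genes are near these shares and are no result about the members. A second annotated start site of Casp4 overlapped the window and held the same match. These letters were searched in 300 bases only, and a match is not evidence of binding.

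The interferon element was present in at least 1 window of all 6 genes of a list of GTPases that act on cytosolic LPS and bacteria (Gbp2, Gbp3, Gbp5, Gbp7, Irgm1 and Gm12250), a list chosen with earlier results known. The other start site of Gbp3 had no match. The gamma-activated site was found in 3 of the 6 and the κB pattern in 1, Gbp5. The matches of Gbp2 and Gbp7 are shown with 15 bases on each side, since these genes are compared with the members below. Capitals mark the element, which on this strand reads TTTC, any 2 bases, TTTC. The windows are chr3:142620589-142620628 for Gbp2 and chr3:142530268-142530307 for Gbp7, both on the plus strand.
Gbp2: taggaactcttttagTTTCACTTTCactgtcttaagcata
Gbp7: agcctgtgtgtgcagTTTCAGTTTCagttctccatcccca

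None of the 9 genes passed the threshold after LPS. The comparison asked which purified transcripts differed 24 h after LPS, by limma with Benjamini-Hochberg adjustment over all clusters at 0.05. Of all clusters, 0.0029% passed, which was 1 cluster, Ifi44, and every one of the 9 genes had a limma adjusted p = 0.999915. At an unadjusted p under 0.05, 1 member was called, Naip2, where 2.26% of all clusters were. The other Gsdmd cluster, not the one used, had an unadjusted limma p of 0.0452. The median difference over the 9 genes was 0.11 in log2 units, against -0.0016 over all clusters. A positive difference was found in 7 members, where 49.6% of all clusters had one.

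**Figure D1:**
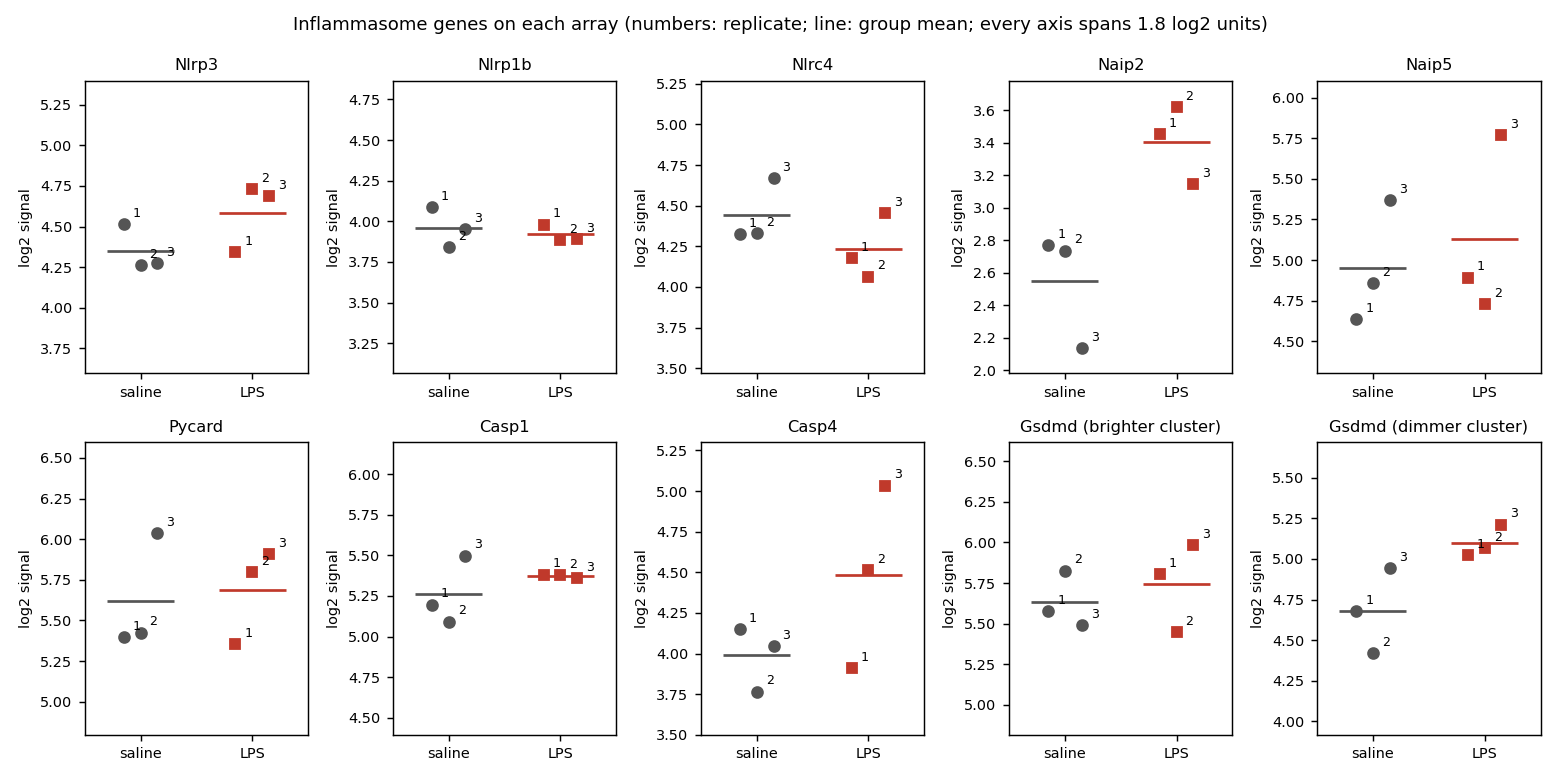
Log2 signal (vertical axis) of the 9 inflammasome genes on each of 3 saline arrays (circles) and 3 LPS arrays (squares), with the replicate number beside each point and a line at the group mean; Gsdmd is drawn for both of its clusters. The LPS squares lie above all saline circles for Naip2 and for the dimmer Gsdmd cluster.

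Among the sensors, Naip2 had the greatest difference. Its protein binds the inner rod of bacterial type III secretion systems and then recruits NLRC4. The log2 signal was 2.77, 2.74 and 2.14 on saline arrays 1, 2 and 3, and 3.45, 3.62 and 3.14 on the LPS arrays. The LPS arrays were all higher than the saline arrays, as they were for 3.61% of all clusters, and saline 3 was the lowest of the 6. The means were 2.55 ± 0.35 and 3.41 ± 0.24 (SD, n = 3 each), a fitted difference of 0.86 ± 0.22 (SE) with a 95% interval from 0.35 to 1.37, or 1.81-fold. Its unadjusted limma p of 0.00435 was 89th in order among the 34472 clusters and did not pass after adjustment (limma adjusted p = 0.999915).

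Naip2 was also the dimmest member, and 14.3% of all clusters had a mean at or below its own. The size of a fold is uncertain for a cluster this dim. The difference was 0.53 when arrays were centred on pan-myeloid markers, where the median of all clusters was -0.33. Its groups then overlapped, and 0.392% of all clusters had every LPS array above every saline array. The groups also overlapped with centring on ribosomal protein genes, where the difference was 0.80 and that share was 1.89%.

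Naip5 encodes the sensor of bacterial flagellin and lies beside Naip2 on chromosome 13. Its signal was 4.63, 4.86 and 5.37 after saline and 4.89, 4.73 and 5.77 after LPS. The arrays numbered 3 were highest in both groups, by 0.62 and 0.96 over the mean of the other arrays, against medians of 0.17 and 0.20 for all clusters, and the groups overlapped. The fitted difference was 0.18 ± 0.30 (SE), with an interval from -0.52 to 0.87, and it was -0.14 without LPS 3 and 0.38 without saline 3.

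The Naip genes are close relatives whose probes could share transcripts, so values of single members are uncertain. The description of the Naip5 cluster in the deposited table holds a further, similar entry of the family. The 2 other relatives on the array, named after their values were seen, differed by -0.02 ± 0.28 for Naip1 and -0.26 ± 0.19 for Naip6 (SE), and for both the groups overlapped.

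Nlrc4, the partner that NAIP proteins recruit, had a lower mean after LPS. It stood at 4.32, 4.33 and 4.67 after saline and at 4.18, 4.06 and 4.45 after LPS. LPS 3 lay above saline 1 and saline 2, so the groups overlapped. Both arrays numbered 3 were high, by 0.34 after saline and 0.33 after LPS over the mean of the other arrays, and each LPS array was below the saline array of the same number. The difference was -0.21 ± 0.18 (SE), with an interval from -0.62 to 0.20, and it did not pass with the replicate block (limma adjusted p = 0.892). It was -0.095 without saline 3, -0.13 without LPS 2 and -0.32 without LPS 3. After centring each array on its median it was -0.24 and the groups no longer overlapped, as for 5.15% of clusters in that direction. With arrays centred on pan-myeloid markers it was -0.53, again without overlap, as for 24% of clusters in that direction. In that setting the median of all clusters was -0.33, and Nlrc4 did not pass (limma adjusted p = 0.397).

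Nlrp3, the sensor that responds to potassium efflux and many forms of cell damage, read 4.51, 4.26 and 4.27 after saline and 4.34, 4.73 and 4.69 after LPS. LPS 1 lay below saline 1, and the other LPS arrays lay above all saline arrays. The difference was 0.24 ± 0.17 (SE), or 1.18-fold, with an interval from 0.90-fold to 1.55-fold. It was 0.36 without LPS 1. With arrays centred on pan-myeloid markers it turned to -0.09, where the median of all clusters was -0.33.

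Nlrp1b, the sensor of anthrax lethal factor in susceptible mouse strains, was nearly level. It read 4.09, 3.84 and 3.95 after saline and 3.98, 3.89 and 3.89 after LPS, so every LPS array lay within the saline range. Its difference was -0.04 ± 0.15 (SE), and the interval ran from 0.77-fold to 1.23-fold.

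Pycard encodes ASC, the adaptor that links sensors to caspase-1. The signal was 5.40, 5.43 and 6.04 after saline and 5.35, 5.80 and 5.91 after LPS, with the highest and the lowest values in opposite groups. The fitted difference of 0.07 ± 0.23 (SE) had an interval from -0.47 to 0.60. It ran from -0.05 without saline 1 to 0.28 without saline 3.

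Casp1, the enzyme that matures IL-1β and IL-18, had the tightest LPS group. It read 5.20, 5.09 and 5.50 after saline and 5.38, 5.38 and 5.36 after LPS. Each LPS array lay above saline 1 and saline 2 and below saline 3. The difference was 0.11 ± 0.16 (SE), with an interval from 0.84-fold to 1.40-fold. It was 0.23 without saline 3 and 0.03 without saline 2.

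Casp4, the caspase-11 gene that neighbours Casp1 on chromosome 9, varied more between LPS arrays. It read 4.15, 3.77 and 4.05 after saline, and 3.91, 4.51 and 5.03 after LPS. LPS 1 lay inside the saline range, while LPS 2 and LPS 3 lay above it. The SD was 0.20 after saline and 0.56 after LPS. The difference was 0.50 ± 0.28 (SE), or 1.41-fold, with an interval from 0.91-fold to 2.19-fold (limma adjusted p = 0.999915, unadjusted 0.109). It was 0.79 without LPS 1 and 0.22 without LPS 3. With arrays centred on pan-myeloid markers it was 0.17, where the median of all clusters was -0.33.

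**Figure D2:**
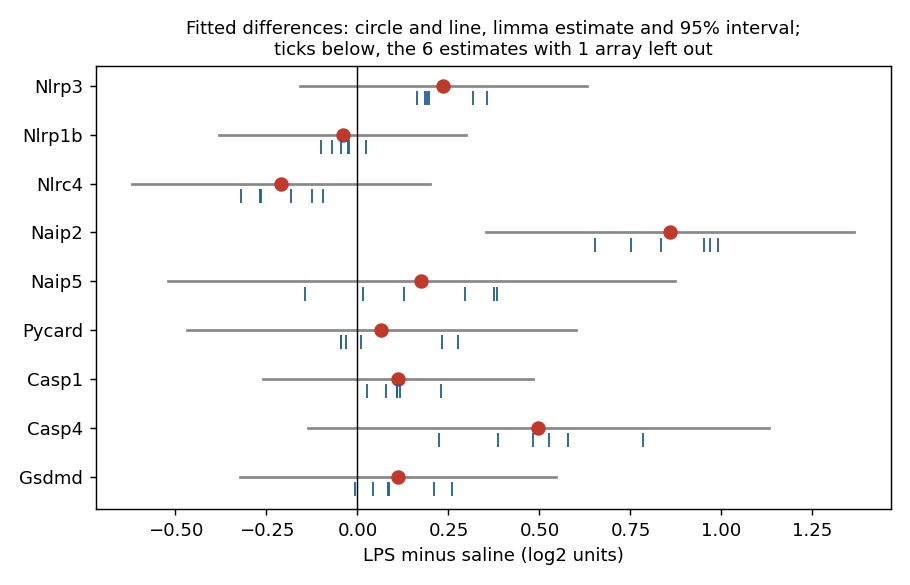
LPS minus saline in log2 units (horizontal axis) for each of the 9 genes: circles are limma estimates over 3 against 3 arrays, lines their 95% intervals, and blue ticks the 6 estimates with 1 array left out. Of the clusters drawn, that of Naip2 is the one whose interval, from 0.35 to 1.37, does not include 0, before adjustment. The dimmer Gsdmd cluster, not drawn, had an interval from 0.01 to 0.83.

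Gsdmd, the gene of the pore protein, gave different pictures in its 2 clusters. The brighter cluster, the one chosen, read 5.58, 5.83 and 5.49 after saline and 5.80, 5.45 and 5.98 after LPS. Its groups overlapped widely, with a difference of 0.11 ± 0.19 (SE). The dimmer cluster read 4.68, 4.42 and 4.95 after saline and 5.02, 5.07 and 5.21 after LPS. There the groups did not overlap and LPS was higher, with a difference of 0.42 ± 0.18 (SE), an interval from 0.01 to 0.83, an unadjusted limma p of 0.0452 and a limma adjusted p = 0.999915.

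Both clusters cite the same RefSeq transcript, and all 5 accessions of the brighter cluster also belong to the dimmer one. Their cluster numbers lie in different runs of the array's numbering. Of the 20 clusters nearest in number to the dimmer one that have a strand in RefSeq, 19 are genes of the plus strand, while all 20 nearest to the brighter one are genes of the minus strand. The strand read by each cluster's probes was not analysed here, so which cluster reports Gsdmd transcripts is not settled.

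The authors' deposited table summarised each group by a bi-weight average, which gives less weight to an array far from the others. In the authors' deposited table Pycard was 1.33-fold higher after LPS, while the difference of means gave 1.05-fold. For Naip5 the authors' deposited table listed a signed fold of -1.06, opposite to the fitted difference. In the authors' deposited table Nlrp3 was 1.35-fold and Casp4 1.38-fold higher. The authors' deposited table gave Naip2 a fold of 1.59 with a p-value of 0.0258, and its adjusted p-value was 0.999886 for every member.

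**Figure D3:**
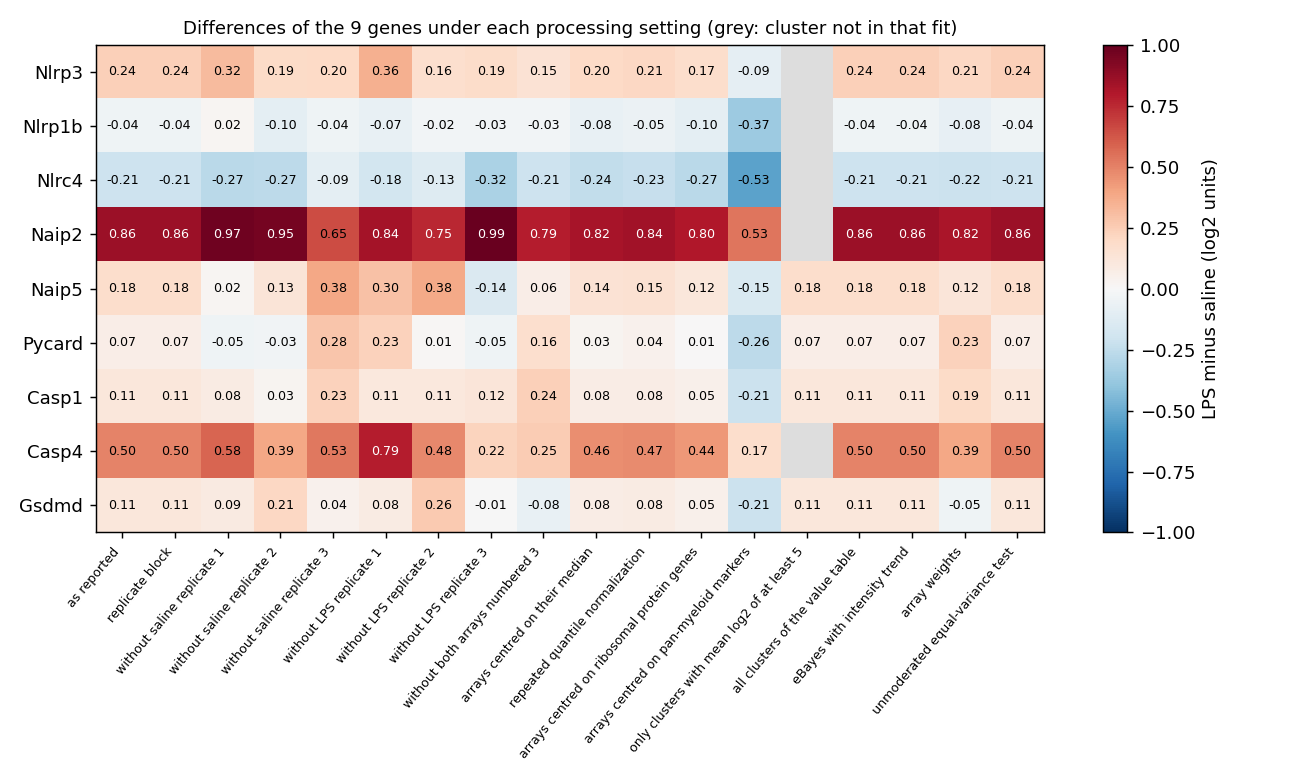
LPS minus saline in log2 units (colour and printed value) for the 9 genes (rows) under each processing setting (columns); grey marks clusters left out of a fit. Naip2 and Casp4 are positive and Nlrc4 negative in every column with a value, while Pycard and Gsdmd change sign in several.

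Over the 17 other settings run, no member passed the threshold. With the replicate number as a block, 3 clusters passed in place of 1 (Ifi44, Oasl2 and Irf7), and the lowest limma adjusted p among the members was 0.236. Arrays centred on 7 pan-myeloid markers gave a member median of -0.21, where the median of all clusters was -0.33. Those markers had a positive difference in 6 of 7, none past the threshold, with a mean signal from 5.93 to 6.40 after saline and from 6.21 to 6.85 after LPS. Differences of the microglia markers were negative in 12 of 12, none past the threshold, and 3 of them (P2ry12, Siglech and Fcrls) had every LPS array below every saline array, where 3.1% of all clusters did. Neutrophil markers, of a cell type that also expresses inflammasome genes, had a positive difference in 11 of 12, none past the threshold, with a mean from 4.26 to 4.51 after saline and from 4.51 to 5.07 after LPS. Of these, S100a9 and Mmp9 had every LPS array above every saline array, where 3.61% of all clusters did. They differed by 1.22 ± 0.24 and 0.29 ± 0.15 (SE), and S100a8, with overlapping groups, by 1.47 ± 0.44. Ly6g, the surface marker of neutrophils, was the 1 with a negative difference, of -0.27 ± 0.26 (SE). The part of these cell types in the members' values was not tested.

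Partners of the 9 genes were read from 6 lists with 45 genes in all, of which 0 passed the threshold by limma in either direction. An unadjusted p under 0.05 was found for 12, all with higher means after LPS, where 1.49% of all clusters had such a call. These 12 include all 6 genes of cytosolic LPS access. The lists were chosen with earlier results of these data known, so the count is no test of them. Differences of the 45 genes are given by role. For each list but the priming list, where 1 is named, the 2 genes with the greatest absolute difference are named.

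**Figure D4:**
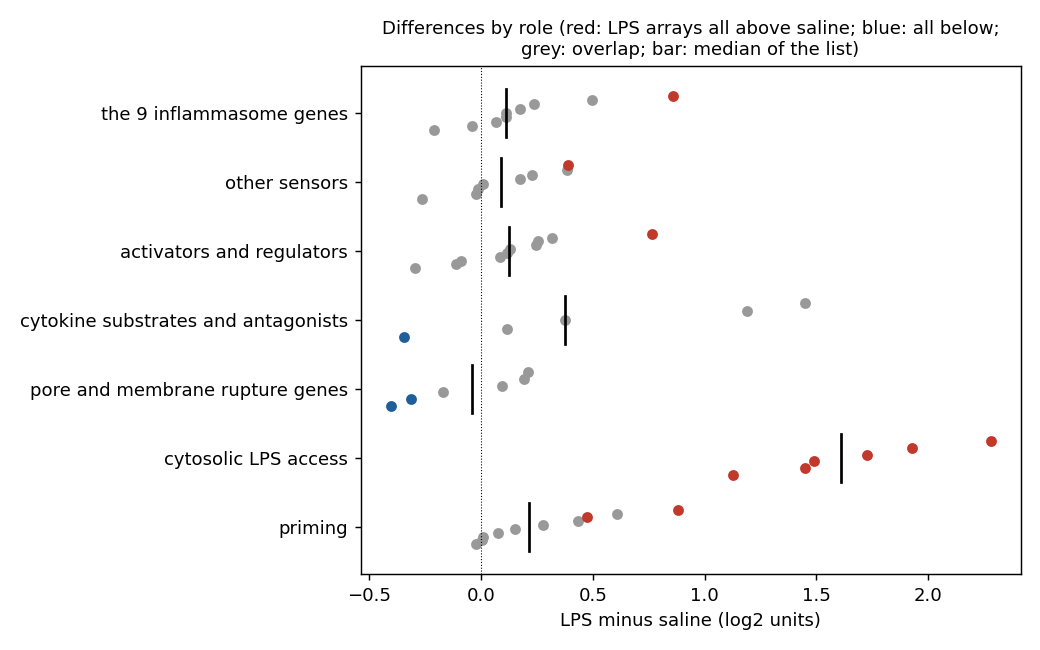
LPS minus saline in log2 units (horizontal axis) for the 9 inflammasome genes and the genes of 6 partner lists; red points have all LPS arrays above all saline arrays, blue points all below, grey points overlap, and bars are list medians. The 6 genes of cytosolic LPS access lie between 1.13 and 2.28, while the 9 inflammasome genes lie between -0.21 and 0.86.

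The list of cytosolic LPS access, whose guanylate-binding proteins help to expose LPS to caspase-11, had the greatest median of the 6 lists. All 6 genes had LPS arrays above all saline arrays, and the median difference was 1.61, while for 3.61% of all clusters the groups were apart in this direction. Gbp2, a guanylate-binding GTPase, read 5.18, 5.61 and 4.78 after saline and 6.79, 7.58 and 8.03 after LPS, a difference of 2.28 ± 0.33 (SE; limma adjusted p = 0.231). Irgm1, a GTPase that restrains its relatives on host membranes, differed by 1.93 ± 0.44. Gbp7 had the lowest adjusted p of the 45 (1.49 ± 0.17, limma adjusted p = 0.142), and it was named after its values were seen. With array weights Gbp2 and Gbp7 both passed (limma adjusted p = 0.0201 and 0.0180). On the same arrays Casp4 differed by 0.50, and the difference between Casp4 and these genes was not tested.

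In the list of cytokine substrates and antagonists no gene passed (each limma adjusted p = 0.999915). Il1a, whose product caspase-1 does not cut, differed by 1.45 ± 0.57 (SE) and Il1b, whose product it matures, by 1.19 ± 0.52, both with overlapping groups. Il1b read 4.01, 3.49 and 4.35 after saline and 3.99, 5.10 and 6.32 after LPS. As for Casp4, LPS 1 lay inside the saline range and LPS 3 was the highest array. Il18, named after its values were seen, was lower on all LPS arrays, at 7.99, 8.04 and 8.13 after saline against 7.84, 7.56 and 7.74 after LPS. Its difference was -0.35 ± 0.15 (SE), and 3.1% of all clusters had their groups apart in this direction.

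Among other sensors the median was 0.09 over 8 genes. Nlrp6, an NLR best known in the gut, had LPS arrays above saline arrays (0.39 ± 0.19 SE), and Nlrp1a, a relative of Nlrp1b, differed by 0.38 ± 0.28 with overlap. Among 10 activators and regulators the median was 0.12. Txnip, which binds thioredoxin and has been linked to NLRP3, read 8.28, 8.42 and 8.14 after saline and 8.62, 9.21 and 9.31 after LPS (0.76 ± 0.21). Casp8, which can stand in for caspase-1, differed by 0.32 ± 0.21.

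Genes for other pores and for membrane rupture had a median of -0.04 over 6. Dfna5, which encodes gasdermin E, a pore protein cut by caspase-3, read 6.42, 6.59 and 6.54 after saline and 6.31, 6.18 and 6.11 after LPS. All LPS arrays were thus lower, with a difference of -0.31 ± 0.15 (SE). Gsdmc2 also had LPS arrays below saline arrays (-0.41 ± 0.20). In the priming list of 10, with a median of 0.22, Cd14, a co-receptor for LPS, differed by 0.61 ± 0.26. None of these passed (each limma adjusted p = 0.999915).

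The clusters whose values followed Naip2 most closely were those that the deposited table labels Mir199a-1, B430319H21Rik and Aoah, the last an enzyme that deacylates LPS. Likeness was measured as the root mean square difference over 6 arrays after each gene's mean was taken off, and it was 0.16, 0.17 and 0.19 log2 units among 26596 clusters of a single gene. For Casp4 the nearest were Angptl4, an inhibitor of lipoprotein lipase, at 0.08, Gm5415 at 0.08 and the early response gene Ier3 at 0.09. Angptl4 read 5.52, 5.26 and 5.60 after saline and 5.46, 6.11 and 6.64 after LPS. As descriptions over 6 arrays searched among many clusters, these likenesses carry no test.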

How the data were processed

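Values were the authors' deposited log2 signals, 1 per transcript cluster and array. Per the submitters' processing notes they come from RMA, run with Affymetrix Expression Console. RMA subtracts background, equalises arrays at probe level and summarises probes. The series' design text names Transcriptome Analysis Console 3.0. The deposited comparison table holds, per the file headers, log2 bi-weight averages, a signed fold and a p-value with its adjusted p-value. Sources used here name no genome build, and no detection calls were used.

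Of 41345 clusters, the 34472 in the comparison table were tested with limma 3.58.1 in R 4.3.3 (group as the only term, two-sided). Errors marked SE are limma's moderated standard errors. Gene positions and promoters come from RefSeq, GRCm38.p6.

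The members, lists and motifs were chosen with earlier results of these data known. Genes named were the 9 members, for each partner list any gene past the threshold or otherwise the 2 with the greatest absolute difference, and for the 2 members with the greatest differences the 3 nearest clusters. Others are marked in the text or are cell type markers. A gene of the priming list that the rule names is not reported here.

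Arrays correlated between 0.977 and 0.992. The labels number arrays 1 to 3 in each group, and deviations from the group means correlated by 0.27, 0.12 and 0.56 between arrays with the same number, so the number was also run as a block, as an alternative.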

Additional observations from a re-analysis of the deposited data

How the results depend on the processing

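With 3 arrays a group, intervals were wide, and the number of arrays limits the precision. No member passed under any of 17 alternatives. Naip2 and Casp4 stayed positive and Nlrc4 negative in each fit that held them.

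Clusters past the threshold numbered 1, against 3 with the replicate block, 2 without both arrays numbered 3, 12 with centring on ribosomal protein genes, 6 on pan-myeloid markers, 22 with array weights, and 0 with all clusters of the value table or the unmoderated test, and 0 to 12 with 1 array left out (12 without LPS 1, 0 without saline 1, saline 2, LPS 2 or LPS 3). The replicate block changed no other call. Members without overlap numbered 1 (Naip2, higher), with Gsdmd read from its brighter cluster and not the dimmer one, which was also apart upward. With median centring they numbered 2 (Naip2 higher, Nlrc4 lower), where 2.92% of all clusters were apart upward and 5.15% downward. With repeated quantile normalization the same 2 were apart, and the shares were 3.73% and 3.86%. Centring on ribosomal protein genes left 1 such member, Nlrc4 (lower), with shares of 1.89% and 3.33%. Centring on pan-myeloid markers also left 1, Nlrc4 (lower), with shares of 0.392% and 24%. Without both arrays numbered 3 they numbered 3 (Naip2 and Casp1 higher, Nlrc4 lower), where 16% of all clusters were apart upward and 17.8% downward. They numbered 0 among the 4 members with a mean of at least 5. With 1 array left out they numbered 1 to 3, with shares over all clusters of 5.95% to 12.9% upward and 4.54% to 12.4% downward (2 without saline 1, saline 3 or LPS 3, 3 without LPS 1). Pathway genes past the threshold numbered 2 with array weights. The member median was -0.21 with pan-myeloid centring, which moved the median of all clusters to -0.33, and -0.00629 to 0.23 with 1 array left out.

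Of 149 alternative values, 13 changed sign. Pan-myeloid centring lowered the difference of every cluster by the same amount, to a median of -0.33 over all clusters. In that setting Nlrp3 was -0.0893, Naip5 -0.15, Pycard -0.26, Casp1 -0.21 and Gsdmd -0.21. Gsdmd was -0.0766 without both arrays numbered 3 and -0.0459 with array weights. With 1 array left out, Nlrp1b ran from -0.10 to 0.0233, Naip5 from -0.14 to 0.38, Pycard from -0.0461 to 0.28 and Gsdmd from -0.00629 to 0.26. The causes were not tested.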
